A study of Mus musculus with 4 samples.

Results

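Wnt signalling genes were followed through whole-testis RNA of mice labelled control or Ythdf2-vKO. The set was chosen by gene symbol: the Wnt ligands, Frizzled receptors, Sfrp and Dkk antagonists, R-spondins, Dishevelled, Axin and Tle genes, with Lrp5, Lrp6, Ctnnb1, Lef1, Tcf7, Tcf7l1, Tcf7l2, Apc, Lgr4, Rnf43 and Znrf3. Of 25265 genes in the deposited table, 56 matched, and 46 of these had enough counts to be tested. The set was taken up with the comparison of the groups already known, Wnt4 being among its largest differences. The p-values below come from a fit of all genes and describe the members, and they are no independent support for the choice.

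Wnt ligands are secreted, lipid-modified proteins that bind a Frizzled receptor together with an Lrp5 or Lrp6 coreceptor. The bound receptor recruits Dishevelled, which disables a destruction complex built on Axin and Apc, so that beta-catenin (Ctnnb1) accumulates and joins Tcf and Lef factors on DNA. Without beta-catenin those factors hold Tle proteins, the mammalian Groucho corepressors, and keep their targets off. In the testis the pathway is studied in germ cells and in Sertoli cells, the somatic cells that nurse them.

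The testes came from C57BL/6 mice at postnatal day 56, in 2 control and 2 Ythdf2-vKO libraries by their labels, and the series title describes the mutation as germ cell-specific. YTHDF2 is a cytoplasmic reader of m6A-marked RNA that promotes its decay. The labels used here give neither the Cre driver nor the deleted segment, and they do not say whether libraries came from separate animals. P-values therefore measure only the spread between these libraries, which may be technical. Total counts lay between 24862518 and 29561182 per library, and the members together took 0.149% to 0.169% of them. Defining germ cell genes were abundant, with Prm2, a sperm protamine, at 2160 ± 269 CPM in control and 1770 ± 61.9 CPM in vKO (CPM, reads of a gene scaled to the size of its library, SD, n = 2). Ythdf2 counts were no lower in vKO than in control. There were 1193 and 1604 counts in control against 1774 and 1807, which gave a log2 difference of 0.35 (SE 0.13, edgeR adjusted p 0.238). Every direction below is therefore that of the libraries labelled vKO.

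In those libraries 3 members rose and none fell at an adjusted p under 0.05 in edgeR's quasi-likelihood test, Wnt4 and Wnt6 among the ligands and Tle2 among the corepressors. Among all 21132 genes tested, 0.393% passed in either direction, 0.279% higher and 0.114% lower. At an unadjusted p under 0.05, 10 tested members were higher and none was lower, where 14.1% of all genes were past it, 7.65% higher and 6.47% lower. DESeq2's Wald test called 2 members higher, Tle2 and Wnt6, and none lower. It called 1.32% of the 16448 genes to which it gave an adjusted p, a smaller set than the 21132 of edgeR. Several members, Wnt4 among them, were given no adjusted p. The authors' deposited table gave the same share, 1.32%, and the same adjusted p for Tle2 (1.99e-06) and Wnt6 (0.00625) as that Wald test. Its values are therefore read as the same calculation on the same counts and not as separate support. Without control replicate 1, edgeR called 8 members higher (Axin1, Dvl1, Dvl2, Dvl3, Lrp5, Tle2, Wnt4 and Wnt6), where 4.72% of all genes tested were called higher. Without control replicate 2 it called Wnt3 lower, where 2.39% of all genes were called lower. With the replicate number as a block it called 4 members, the 3 above and Dvl3, where 4.81% of all genes were called. The groups did not overlap in 20 tested members with vKO higher and in 2 with vKO lower, against 22.7% and 22.6% of all genes tested. The log2 fold change was above 0 in 36 tested members, against 50.3% of all genes, and its median was 0.28 over the tested members and 0.00 over all genes tested. Since Wnt4 and Wnt10a passed the low-count filter through the vKO libraries alone, these counts describe the members that passed and not the set as a whole. In bulk RNA, fewer cells of a type and less RNA per cell cannot be told apart.

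**Figure D1:**
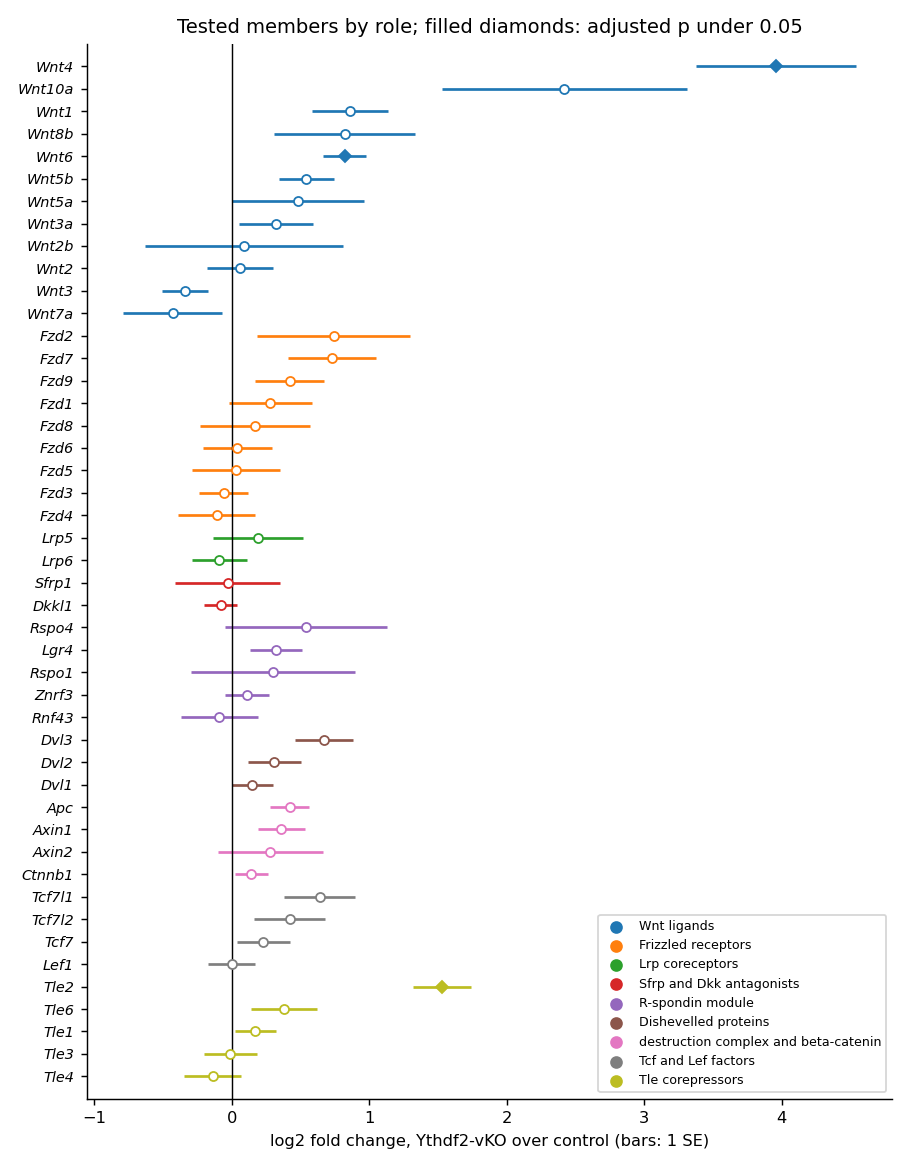
Log2 fold change of the 46 tested members (horizontal axis, vKO over control, bars 1 SE), grouped by role from ligands at the top to corepressors at the bottom. Filled diamonds mark the 3 members with an adjusted p under 0.05 (Wnt4 at 3.96, Tle2 at 1.53, Wnt6 at 0.82), and open circles the others, of which Wnt7a at -0.43 lies furthest to the left.

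Wnt4, a ligand best known for kidney tubule formation and ovary development, was close to the detection limit in control. Its counts were 1 and 6 in control against 60 and 52 in vKO. No overlap existed between the groups, and the vKO libraries agreed closely while the control libraries differed by 2.23 on the log2 scale. Scaled, this was 0.121 ± 0.111 against 2.08 ± 0.222 CPM (SD, n = 2), a log2 fold change of 3.96 (SE 0.58, edgeR adjusted p 0.0171). Wnt4 passed the low-count filter through the vKO libraries alone, so its direction came with that filter. It was also known to differ when the set was chosen, and its p is no independent support. Summed over libraries, 7 counts stood against 112, a ratio of 15.9 with an exact 95% interval from 7.46 to 40.4 that covers counting error only. The log2 fold change was 5.46 without control replicate 2 and 3.34 without control replicate 1. In the authors' deposited table Wnt4 had an unadjusted p of 4.06e-07 and no adjusted p. The gene (ENSMUSG00000036856) lies on the plus strand of chromosome 4, 137277489 to 137299726 in GRCm38, and no other annotated gene overlaps it.

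Wnt6, a ligand of many epithelia, was among the most abundant ligands and rose less steeply. It had 324 and 433 counts in control against 722 and 619 in vKO. Both vKO libraries, at 27 and 22.9 CPM, lay above the control libraries at 13.9 and 14.4 CPM. The log2 fold change was 0.82 (SE 0.16, edgeR adjusted p 0.0483), just inside the threshold. Its call was lost without vKO replicate 1 (0.70, adjusted p 0.391), with DESeq2 size factors (adjusted p 0.0504), without robust estimation (adjusted p 0.0539) and with an offset for GC content (0.60, adjusted p 0.128). In the authors' deposited table it had a log2 fold change of 0.82 and an adjusted p of 0.00625. Wnt6 (ENSMUSG00000033227) lies on the plus strand of chromosome 1, 74771892 to 74785322, and Gm29539 crosses it on the other strand without touching its exons.

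Tle2, a Groucho corepressor without DNA binding of its own, had the smallest p of the set. Counts were 147 and 131 in control against 412 and 413 in vKO. The vKO libraries were nearly equal, at 15.4 and 15.3 CPM, and stood well above 6.28 and 4.37 CPM in control. This was a 2.9-fold difference, or a log2 fold change of 1.53 (SE 0.21, edgeR adjusted p 0.01). It was called under each of the 14 alternative settings and left-out libraries, with log2 fold changes from 1.29 to 1.80. In the authors' deposited table its adjusted p was 1.99e-06. Tle2 (ENSMUSG00000034771) lies on the plus strand of chromosome 10, 81574561 to 81590845. The antisense gene Gm15917 shares exon positions with it, and whether counting was stranded is not given in the sources used here.

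**Figure D2:**
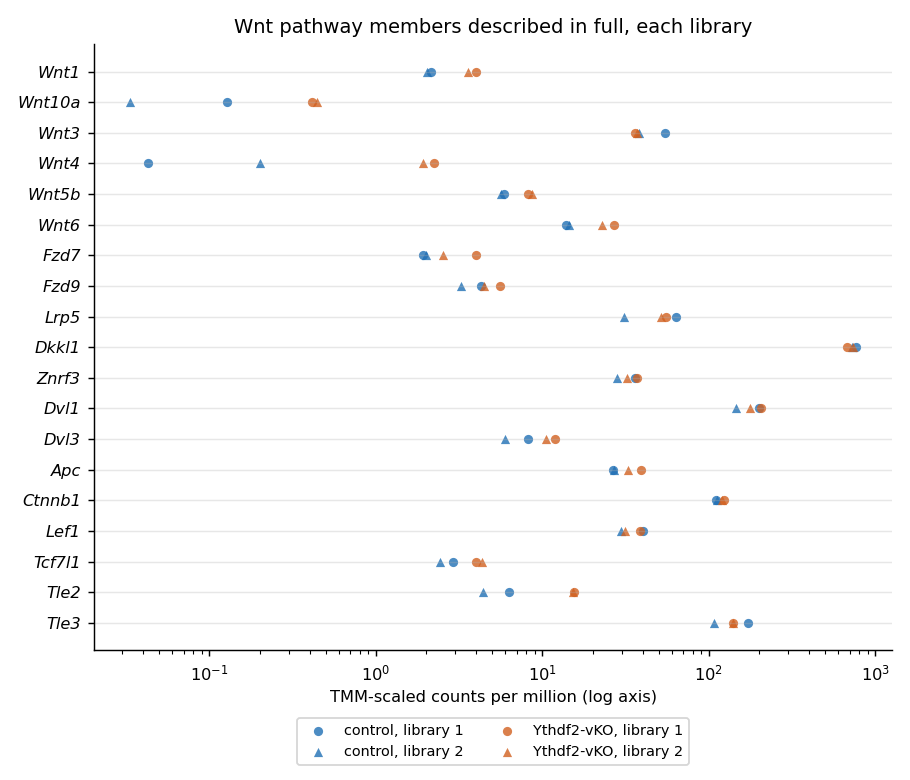
TMM-scaled CPM of the 19 members described in full (log axis), 1 point per library, blue for control and orange for vKO, circles for replicate 1 and triangles for replicate 2. The vKO points of Wnt4, Wnt6 and Tle2 lie to the right of both control points. So do those of Wnt1, Wnt5b, Wnt10a, Fzd7, Fzd9, Dvl3, Apc, Ctnnb1 and Tcf7l1, which were not called. Lrp5, Lef1 and Tle3 have their control points on either side of the vKO points.

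The start regions of the 3 genes that rose are shown because they can be set beside all others for base composition and simple motifs. Each is 300 bases, from 250 before the annotated start to 50 after it, taken from RefSeq on GRCm38.p6 and written 5′ to 3′ on the gene's strand. Where RefSeq gives several starts, the window nearest the GENCODE gene start is used. The RefSeq start is the GENCODE start for Wnt6, but lies 146 bases inside the GENCODE gene for Wnt4 and 726 bases inside it for Tle2, so that the Tle2 window falls wholly within the gene coordinates above. Capitals mark the GC box GGGCGG on either strand, with overlapping matches run together.
Wnt4, chr4:137277385-137277684, plus strand: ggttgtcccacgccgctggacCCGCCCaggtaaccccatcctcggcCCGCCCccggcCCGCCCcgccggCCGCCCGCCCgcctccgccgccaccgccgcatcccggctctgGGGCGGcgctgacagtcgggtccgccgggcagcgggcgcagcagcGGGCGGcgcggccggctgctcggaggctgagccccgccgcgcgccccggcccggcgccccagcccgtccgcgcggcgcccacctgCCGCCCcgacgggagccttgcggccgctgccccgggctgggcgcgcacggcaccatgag
Wnt6, chr1:74771642-74771941, plus strand: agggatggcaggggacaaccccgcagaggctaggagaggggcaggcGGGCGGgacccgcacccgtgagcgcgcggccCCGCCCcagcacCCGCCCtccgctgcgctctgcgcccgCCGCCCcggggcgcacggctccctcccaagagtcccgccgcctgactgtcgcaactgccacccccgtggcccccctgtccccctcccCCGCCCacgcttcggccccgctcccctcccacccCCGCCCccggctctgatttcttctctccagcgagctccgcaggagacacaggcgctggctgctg
Tle2, chr10:81575037-81575336, plus strand: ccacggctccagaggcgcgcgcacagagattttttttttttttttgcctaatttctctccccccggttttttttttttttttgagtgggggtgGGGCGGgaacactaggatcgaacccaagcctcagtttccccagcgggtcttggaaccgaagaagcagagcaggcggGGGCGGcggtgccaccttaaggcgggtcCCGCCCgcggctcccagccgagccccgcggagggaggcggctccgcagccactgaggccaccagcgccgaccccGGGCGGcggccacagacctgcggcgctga

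The Wnt4 window held 8 GC boxes, that of Wnt6 held 6 and that of Tle2 held 4. GC content was 84.3%, 76.7% and 64.7% in that order, against a median of 52.7% over 32851 promoter windows. None of the 3 windows held CTTTGA, the core recognised by Tcf and Lef factors, nor CCAAT or TATAAA, on either strand. Of the 56 members, 40 matched a RefSeq promoter, and their median GC content was 71%. Each of the 40 gave a single window, while the 32851 windows were neither reduced in that way nor limited to the genes counted here. The shares therefore come from unlike sets. A GC box was found in 77.5% of the member windows and in 35.7% of all windows. CTTTGA was found in 5% of the member windows, those of Fzd1 and Wnt11, and in 16% of all windows. CCAAT was in 35% and 37.4%, and TATAAA in 5% and 13.6%. These are matches of letters, and no match says only that the letters are not in the window.

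Of 17 Wnt ligands in the table, 12 were tested. Between genes, levels were compared as CPM per kilobase of exon. Wnt3 and Wnt6 led the ligands, with mean levels over the 4 libraries of 13.5 and 8.91 per kilobase. Wnt5b, at 2.67, Wnt2, at 1.86, and Wnt3a, at 1.39, came next. In control, Wnt3 made up 52% of the summed ligand level and Wnt6 22.3%, and in the libraries labelled vKO their shares were 35.5% and 34%. The summed ligand level was 31.5 and 26.4 in control against 34.7 and 32.2 in vKO. Wnt4 contributed 0.1% of it in control and 1.48% in vKO.

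Wnt3, a ligand of stem cell niches, had 1276 and 1139 counts in control against 967 and 1002 in vKO. Its log2 fold change of -0.34 (SE 0.17) did not pass, at an edgeR adjusted p of 0.398. That value turned on the control libraries, at 54.5 and 38 CPM against 36.1 and 37.1 in vKO. Without control replicate 2 it was -0.57 (adjusted p 0.00656), and without control replicate 1 it was -0.06. Wnt7a was the other tested ligand with a negative value, -0.43 (SE 0.36).

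Several ligands had unadjusted p-values under 0.05 without passing the adjustment. Wnt1, a ligand of the developing midbrain, had 50 and 61 counts in control against 107 and 97 in vKO. Its groups did not overlap, at 2.09 ± 0.0738 against 3.79 ± 0.284 CPM (SD, n = 2), and the log2 fold change was 0.86 (SE 0.28, edgeR adjusted p 0.193). Wnt5b, which acts mostly outside the beta-catenin branch, had 137 and 170 against 218 and 234 counts, with a log2 fold change of 0.54 (SE 0.20, edgeR adjusted p 0.242). With the GC offset that of Wnt5b was 0.35. Wnt10a had 3 and 1 against 11 and 12 counts. Its ratio of 5.71 had an exact 95% counting interval from 1.95 to 22.7, and its edgeR adjusted p was 0.245.

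Other tested ligands did not pass. Wnt8b had 13 and 15 against 27 and 23 counts (log2 fold change 0.82, SE 0.51), Wnt5a a log2 fold change of 0.48 (SE 0.48), Wnt3a of 0.32 (SE 0.27) and Wnt2 of 0.06 (SE 0.24). Wnt2b varied most between vKO libraries among the tested members, with 29 and 5 counts. The untested ligands Wnt7b, Wnt9a, Wnt9b, Wnt10b and Wnt11 had 1 to 16 counts per library. Wnt9b had 2 and 2 counts in control against 4 and 10 in vKO.

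Several members are neighbours in the genome, and the values of each pair can be set side by side. Wnt6 and Wnt10a lie 6.19 kb apart on the same strand of chromosome 1, with log2 fold changes of 0.82 (SE 0.16) and 2.42 (SE 0.89). Both were higher in each vKO library than in either control library, as were 22.7% of all genes tested. Wnt10a passed the low-count filter through the vKO libraries alone. Its direction came with that filter and is no support for a shared change of the pair. Wnt10b and Wnt1 lie 11.7 kb apart on opposite strands of chromosome 15. Wnt1 had a log2 fold change of 0.86, while Wnt10b was not tested, with 6 and 8 against 7 and 5 counts. Wnt9b and Wnt3 lie 24.3 kb apart on chromosome 11, and Wnt3a and Wnt9a 16.2 kb apart on the same chromosome. Tle2 and Tle6 lie tail to tail on chromosome 10 with 58 bp between them. Tle6, a Tle relative known from the oocyte's subcortical complex, had 105 and 216 counts in control against 192 and 220 in vKO. Its groups overlapped, and its log2 fold change was 0.38 (SE 0.24, edgeR adjusted p 0.525).

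Wnt4 lies on the chromosome that carries Ythdf2, 5.07 Mb from it. Within 10 Mb on either side of Ythdf2, a window chosen after the data were seen, 3 of 360 tested genes were called and all 3 were higher, namely Wnt4, Padi2 and Zfp362. This is 0.833% of the genes there, a share that includes Wnt4 itself, which passed the low-count filter through the vKO libraries alone. Over the whole chromosome 0.724% of 1243 tested genes were called, 6 higher and 3 lower, and over all genes 0.393%. Within 5 Mb 0.515% were called and within 20 Mb 0.503%. The median log2 fold change within 10 Mb was 0.09. Rspo1, 7.18 Mb to the other side, had 12 and 12 against 11 and 19 counts and a log2 fold change of 0.30 (SE 0.60). Dvl1 and Tle1, further away on the same chromosome, had log2 fold changes of 0.15 and 0.17 and were not called. Whether linkage to the targeted gene plays a part was not tested.

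**Figure D3:**
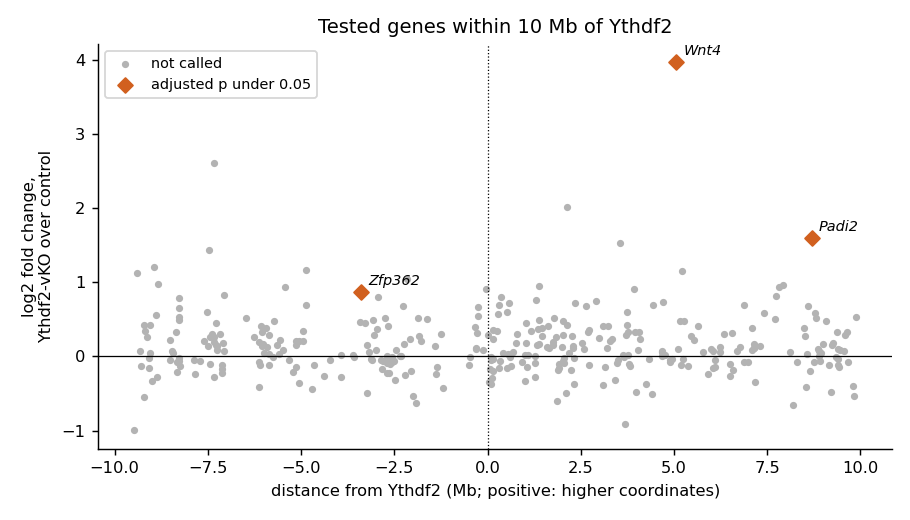
Log2 fold change (vertical axis, vKO over control) of tested genes by distance from Ythdf2 in megabases (horizontal axis, positive toward higher coordinates), within 10 Mb on either side. Orange diamonds are the 3 called genes, with Wnt4 at 5.07 Mb the highest point of the plot, and grey points are genes that were not called.

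No Frizzled receptor passed the test. Among 10 receptors present, 9 were tested, with a median log2 fold change of 0.17 and a range from -0.11 to 0.74. Fzd9 had the highest level, 1.91 CPM per kilobase of exon, followed by Fzd6 at 1.09 and Fzd3 at 0.896, and Fzd10 was lowest at 0.0426. Fzd9 had 100 and 97 counts in control against 149 and 120 in vKO, with a log2 fold change of 0.42 (SE 0.25). This was 0.20 with the GC offset, 0.23 without control replicate 2 and 0.25 without vKO replicate 1. Fzd7, a receptor of stem cells in several epithelia, was the only receptor with an unadjusted p under 0.05. Its counts were 45 and 60 in control against 107 and 68 in vKO, so that vKO replicate 1 was far above the rest. The log2 fold change was 0.73 (SE 0.32, edgeR adjusted p 0.322), and 0.36 without that library. Fzd3, Fzd4, Fzd5 and Fzd6 had log2 fold changes from -0.11 to 0.04.

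Of the coreceptors, Lrp5 was the more abundant, at 5.16 CPM per kilobase against 0.827 for Lrp6. Lrp5 had 1477 and 922 counts in control against 1477 and 1400 in vKO. The control libraries, at 63.1 and 30.7 CPM, lay on either side of the vKO libraries at 55.1 and 51.9. Its log2 fold change was 0.19 (SE 0.33, edgeR adjusted p 0.857). Without control replicate 1 it was 0.79 (adjusted p 5.88e-05) and without control replicate 2 it was -0.24, so that the choice of control library set the direction. Lrp6 had a log2 fold change of -0.09 (SE 0.20).

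Among secreted antagonists and their relatives, Dkkl1 was the most abundant member of the whole set. Dkkl1 encodes an acrosomal protein of spermatids related to the Dkk antagonists, and it had 17913 and 21800 counts in control against 18003 and 19932 in vKO. At 460 CPM per kilobase its level was above that of Dvl1, the next member, at 36.4. The groups overlapped, and the log2 fold change was -0.08 (SE 0.12, edgeR adjusted p 0.816). Sfrp1, which binds Wnt ligands directly, had 34 and 94 against 52 and 70 counts and a log2 fold change of -0.03 (SE 0.38). The control libraries of Sfrp1 thus differed by 1.11 on the log2 scale. Dkk3, Dkk4 and Sfrp2 had 1 to 12 counts per library and were not tested.

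R-spondins enhance Wnt signalling by binding Lgr receptors and removing the ubiquitin ligases Rnf43 and Znrf3, which otherwise clear Frizzled from the surface. Znrf3 had the highest level of this module, 4.21 CPM per kilobase, with 839 and 841 counts in control against 991 and 864 in vKO. This gave a log2 fold change of 0.11 (SE 0.16, edgeR adjusted p 0.811), and -0.06 without control replicate 2. Lgr4 had 7.14 and 8.53 CPM in control against 10.1 and 9.56 CPM in vKO. Its groups did not overlap, and its log2 fold change of 0.32 (SE 0.19) did not pass, at an adjusted p of 0.491. Rnf43, at -0.09 (SE 0.28), Rspo1, at 0.30 (SE 0.60), and Rspo4, at 0.54 (SE 0.59), lay within 1 SE of 0. Rspo2 had 2 to 12 counts per library and was not tested.

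Dishevelled genes, which relay the signal from receptor to destruction complex, had log2 fold changes from 0.15 to 0.67, and none passed the adjustment. Dvl1 was the most abundant, at 36.4 CPM per kilobase, with 4662 and 4387 counts in control against 5521 and 4773 in vKO. The log2 fold change of Dvl1 was 0.15 (SE 0.15), with -0.02 under the GC offset and 0.38 (edgeR adjusted p 0.034) without control replicate 1. Dvl3 had 191 and 179 against 320 and 284 counts, with no overlap at 7.07 ± 1.55 and 11.2 ± 1.01 CPM (SD, n = 2). The difference was 0.67 on the log2 scale (SE 0.21, edgeR adjusted p 0.178). It passed with the replicate block (edgeR adjusted p 0.0345), where 4.81% of all genes were called. That block leaves less of the spread between libraries from which to judge error. With that block and the GC offset combined Dvl3 did not pass (0.59, edgeR adjusted p 0.104). Its log2 fold change was 0.90 without control replicate 1 and 0.46 without control replicate 2. Dvl2, at 0.31 (SE 0.19), shares exon positions with Acadvl on the opposite strand.

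No gene of the destruction complex passed the test, nor did beta-catenin, its substrate. Ctnnb1 had 2579 and 3357 counts in control against 3331 and 3240 in vKO, or 110 and 112 against 124 and 120 CPM. The groups did not overlap, but the log2 fold change was 0.14 (SE 0.12, edgeR adjusted p 0.666). Ulk4, on the opposite strand, shares exon positions with Ctnnb1 and had 9315 to 10599 counts per library. Apc, the scaffold that holds beta-catenin for degradation, had 26.7 and 26.8 CPM in control against 38.9 and 32.6 CPM in vKO. Apc had a log2 fold change of 0.42 (SE 0.14, edgeR adjusted p 0.221). Blocking on replicate number together with an offset for GC content brought Apc past the threshold, at an adjusted p of 0.0376, where 2.1% of all genes were called. Without vKO replicate 1 its adjusted p was 0.908.

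Axin1, the other scaffold, had 1188 and 1180 against 1760 and 1344 counts and a log2 fold change of 0.36 (SE 0.17, edgeR adjusted p 0.362). Axin2, a widely used readout because beta-catenin with Tcf factors induces it, was low. It had 31 and 48 counts in control against 60 and 36 in vKO, and the groups overlapped. This was a log2 fold change of 0.28 (SE 0.38, edgeR adjusted p 0.805).

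The 4 Tcf and Lef factors had log2 fold changes from 0.00 to 0.64. Lef1 was the most abundant at 3.96 CPM per kilobase, with 938 and 885 counts in control against 1029 and 842 in vKO. Its CPM means were equal, 34.8 in each group, and its log2 fold change was 0.00 (SE 0.17). On the opposite strand Gm43352 shares exon positions with Lef1 and had 1284 to 1483 counts per library. Tcf7l1, which acts mainly as a repressor, had 68 and 73 against 107 and 117 counts. Its groups did not overlap, and its log2 fold change was 0.64 (SE 0.26, edgeR adjusted p 0.291). The antisense gene Gm15401 shares exon positions with Tcf7l1 and had 39 and 63 counts in control against 73 and 68 in vKO. Tcf7 and Tcf7l2 had log2 fold changes of 0.23 (SE 0.19) and 0.42 (SE 0.26).

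Within the Tle family Tle2 alone passed the test. Tle3 was the most abundant, at 12 CPM per kilobase, with 4025 and 3249 counts in control against 3742 and 3760 in vKO. For Tle3 the log2 fold change was -0.01 (SE 0.19), and the control libraries, at 172 and 108 CPM, lay on either side of the vKO libraries. Tle2 had 4.64% of the summed Tle level in control, the lowest share of the 5 genes, and 11.9% in vKO, where Tle1 had 11.7% and Tle6 12%. The order in vKO depends on the gene model: per kilobase of the longest transcript, Tle2 had 4.57% in control and 11.7% in vKO, where Tle1 had 16.2% and Tle6 12.7%. Tle1 had 18.8 and 19 CPM in control against 21.1 and 21.2 CPM in vKO, a log2 fold change of 0.17 (SE 0.15). Tle4 had a log2 fold change of -0.14 (SE 0.21). Tle6, like Apc and Lrp5, shares at least 200 nt at 90% identity or more with an annotated transcript elsewhere. Reads from such a stretch could be split between them. The longest stretch was 447 of 2015 nt for Tle6, 427 of 12811 nt for Apc and 201 of 8893 nt for Lrp5. The copy of Apc, Apc-ps1, had 2 to 5 counts per library. Dvl2, Fzd5, Sfrp2 and Wnt11 share such a stretch with a gene of the opposite strand at the same place, where exons overlap. No such stretch was found for Tle2, Wnt4 or Wnt6.

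**Figure D4:**
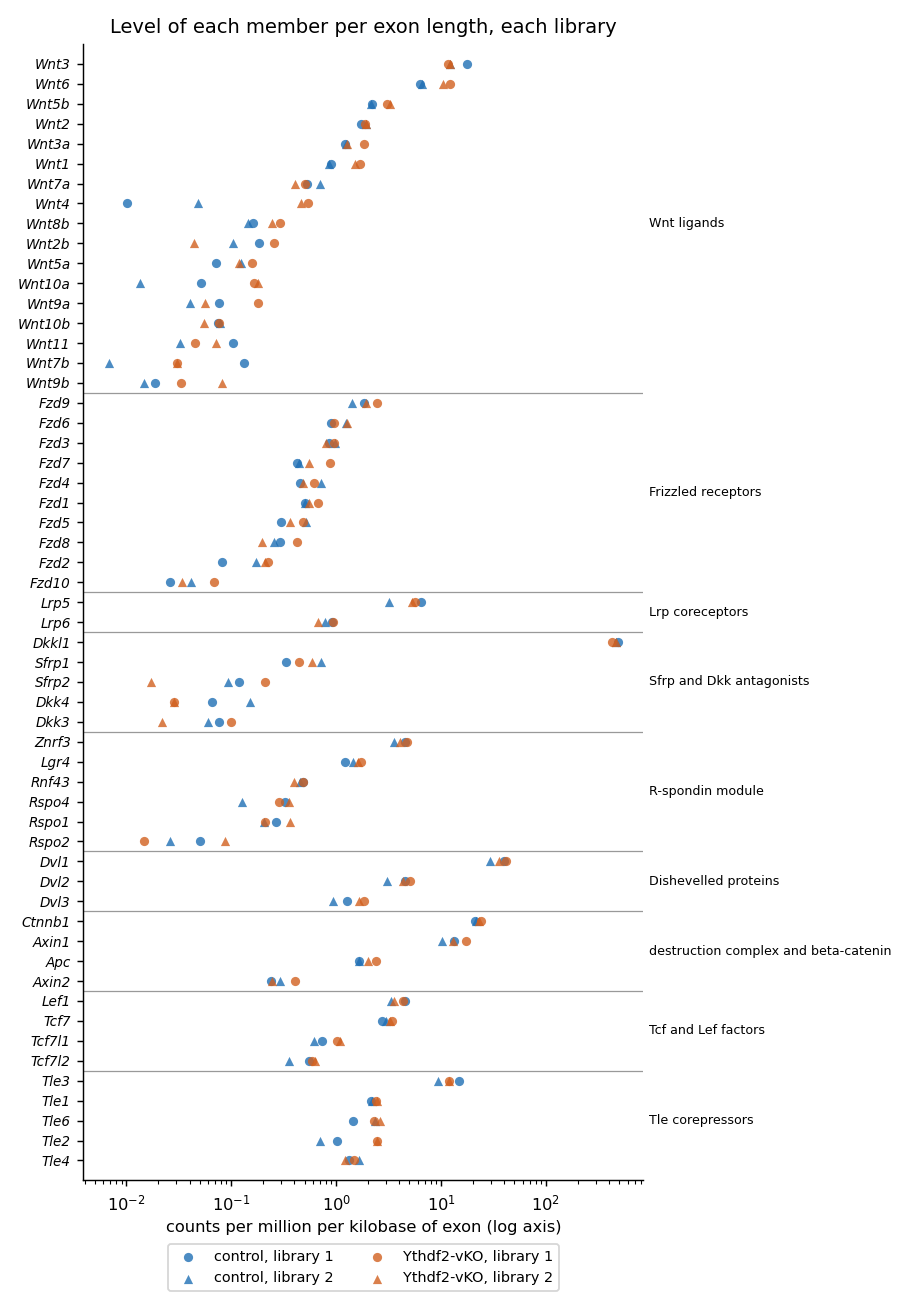
CPM per kilobase of exon of all 56 members (log axis), 1 point per library (blue control, orange vKO, circles replicate 1, triangles replicate 2), grouped by role and ordered by mean level within each role. Dkkl1 at 460 lies far to the right of every other member, and Wnt4 and Wnt10a show the widest gaps between control and vKO points.

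GC content moved with the comparison, and its part in the member values was not tested beyond the offset below. The median GC content of the longest transcripts was 54.7% over the tested members and 48.9% over all genes tested. Across 17816 genes, each library's deviation from the 4-library mean had a Spearman correlation with GC content of 0.024 and -0.401 in control against 0.254 and 0.19 in vKO. These are correlations across genes of the same libraries, and genes are not replicates. Between 55% and 60% GC, 18 tested members had a median log2 fold change of 0.34, where all 3210 genes had 0.14. From 60% up, 4 tested members, Wnt6 among them, had a median of 0.84, where all 847 genes had 0.22. Below 50% the medians were 0.02 over 10 members and -0.06 over all genes. The GC offset gave a median of 0.17 over the tested members, with 2 called, Wnt4 (3.84, edgeR adjusted p 0.0142) and Tle2 (1.36, adjusted p 0.00736), where 0.615% of all genes were called. With it, 7 members were higher and 1, Wnt3, was lower at an unadjusted p under 0.05, where 7.19% of all genes were higher and 6.27% lower. The Spearman correlation of log2 fold change with GC content over the 46 tested members was 0.499, and 0.302 with the offset. Over all genes tested it was 0.255, and -0.00588 with the offset.

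**Figure D5:**
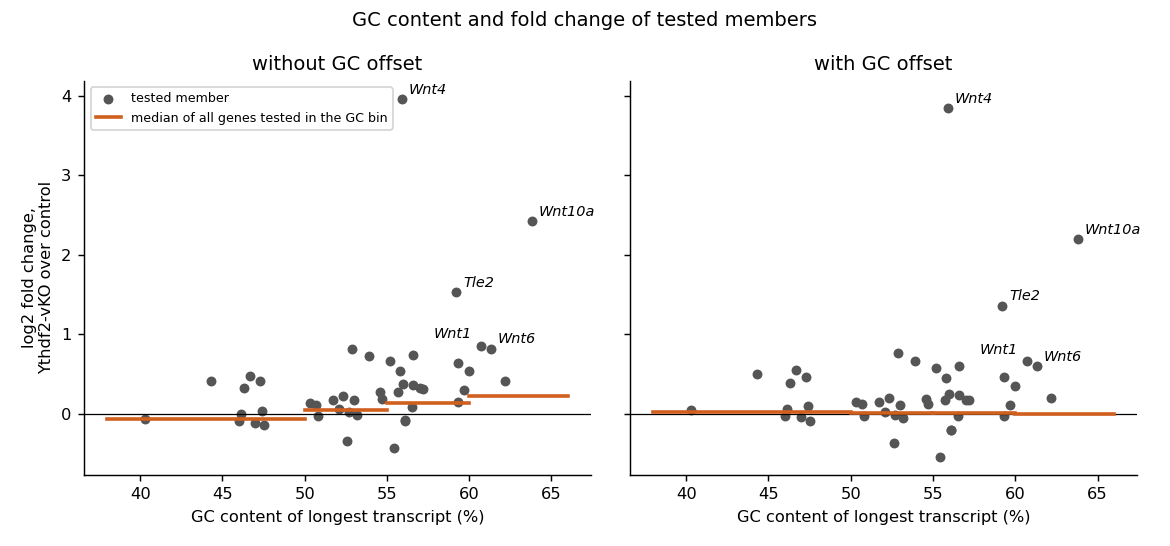
Log2 fold change (vertical axis, vKO over control) of the tested members by GC content of their longest transcript (horizontal axis, percent), without a GC offset at left and with it at right. Grey points are members, and orange lines are medians of all genes tested in each GC bin, which run from -0.06 to 0.22 at left and from 0.00 to 0.02 at right.

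The m6A core GGACT was counted on the sense strand of the longest transcripts, since the targeted gene encodes an m6A reader. Wnt4 had 7 matches (1.67 per kilobase), Wnt6 had 5 (2.41) and Tle2 had 5 (1.14). The median was 1.28 per kilobase over the tested members and 1.02 over all genes tested. A match shows the letters and not that the site is methylated.

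Other genes of the pathway were read from a list of 59, of which 55 were in the table and 50 were tested. None was called by edgeR. At an unadjusted p under 0.05, 9 were higher and 1 was lower, where 7.65% of all genes were higher and 6.47% lower. DESeq2's Wald test called 2, Apcdd1 and Daam2, both higher, where it called 1.32% of the genes to which it gave an adjusted p. The median log2 fold change of the 50 was 0.07, against 0.00 over all genes tested. Porcn and Wls, which load lipid onto Wnt ligands and carry them to the surface and were named after their values were seen, had log2 fold changes of -0.28 (SE 0.22) and 0.63 (SE 0.57). Nearest to the threshold was Apcdd1, a membrane inhibitor of Wnt signalling, named after its values were seen. It had 99 and 154 counts in control against 285 and 233 in vKO, a log2 fold change of 1.04 (SE 0.21, edgeR adjusted p 0.0608). Nkd1, a feedback inhibitor induced by the pathway, was also named after its values were seen. It had 31 and 37 against 74 and 49 counts (0.84, SE 0.36, edgeR adjusted p 0.316). Of the 8 tested genes in the list of antagonists, Apcdd1 included, 2 were above 0, namely Apcdd1 and Igfbp4. The median of the 8 was -0.13, and 50.3% of all genes tested were above 0. The 1 gene lower at an unadjusted p under 0.05 was Kremen2, an antagonist (-1.43, SE 0.66, edgeR unadjusted p 0.0495). Of the 5 tested targets and feedback genes, Nkd1 included, 4 were above 0. Their median was 0.17, and Nkd2 had -0.02 (SE 0.25).

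Markers of the testis cell types gave values beside which the member values can be read. All 12 Sertoli genes had positive log2 fold changes, with a median of 0.46, where 50.3% of all genes tested were above 0. At an unadjusted p under 0.05, 9 of the 12 were higher, where 7.65% of all genes tested were. Wt1, a Sertoli transcription factor, was called (0.71, SE 0.13, edgeR adjusted p 0.0418). The summed level of the 12 was 1320 and 1400 CPM in control against 1950 and 1720 CPM in vKO, led by Clu, a secreted chaperone. All 7 Leydig genes were positive too, with a median of 0.39, 4 of them at an unadjusted p under 0.05. Their summed levels were 258 and 314 CPM against 431 and 311. All 8 spermatogonial genes were positive, with a median of 0.34, 2 of them at an unadjusted p under 0.05. Summed, they had 96.1 and 95.2 against 117 and 105 CPM. Of the 6 endothelial genes 5 were positive, 1 of them at such a p. Their median was 0.40 (33.9 and 23.2 against 42.3 and 36.3 CPM).

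The 7 elongating spermatid genes had a median of -0.29, with summed levels of 9710 and 7860 against 7470 and 7560 CPM. At an unadjusted p under 0.05, 4 of the 7 were lower, where 6.47% of all genes tested were. Spermatocyte genes, 8 in number, had a median of -0.14, the 6 round spermatid genes 0.02, the 5 myoid genes -0.05 and the 6 macrophage genes 0.08. Of 12 rete testis, efferent duct and epididymis genes, 6 were in the table and 5 were tested. Their median was 0.31, with 3 of the 5 above 0. Krt8, named after its values were seen, was lower (-0.56, SE 0.18, edgeR unadjusted p 0.00753). Pax8 and Cdh16 are not analysed here. The summed level of the 6 was 45.2 and 39.6 CPM in control against 47.1 and 43 CPM in vKO. No marker was at 0 in every library. The part of these shifts in the member values was not tested.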

How the data were processed

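Trizol RNA of whole testis was depleted of ribosomal RNA and made into directional libraries, per the labels' protocols. HISAT2 2.1.0 and HTSeq 0.6.1p1 are named in the submitters' processing notes, without their roles. Genome build, annotation and the strand setting are not given in the sources used here. The authors deposited raw read counts per gene for the 4 libraries, per the file headers. Its other columns, per the file headers, are a normalized mean (a signal of counts divided by size factors), a log2 fold change with its error, a test statistic (a score) and p-values with adjusted p-values, under DESeq2's column names with no version. No deposited row had under 10 counts in all.

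The counts were tested with edgeR 4.0.16 (limma 3.58.1, R 4.3.3): TMM scaling, filterByExpr, quasi-likelihood fitting with robust estimation and genotype as its sole term, and Benjamini-Hochberg adjustment over the 21132 genes tested. The SE is the absolute log2 fold change divided by the square root of F, and fitted values used a prior count of 0.125. The fit was run on simulated counts with the same spread set for every gene and changes placed only in genes of higher counts. That run does not cover genes as low as Wnt4 or libraries that differ in their GC trend. CPM are TMM-scaled, and levels per kilobase use the union of a gene's GENCODE M21 exons (GRCm38, which may not be the authors' build). All 56 members were found there by identifier. Reads carry no molecular identifiers, so intervals cover counting error only. At these depths 1 count is 0.0333 to 0.0427 CPM. The GC offset is a lowess curve (span 0.3) of each library's deviation on transcript GC content. Alternatives were DESeq2 1.42.0 (size factors, Wald test), library totals, other filters, no robust estimation, a replicate block, the GC offset and leaving out each library.

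Full values are given for members with an unadjusted p under 0.05 (at most 15) and for the most abundant tested member of each role; other members are given by counts, ranges or single values. Listed genes that were called are named, as is the most abundant gene of a marker list where it is described. The members and lists were chosen with earlier results of these data known.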

Additional observations from a re-analysis of the deposited data

How the results depend on the processing

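The count of members called higher was 3 and stayed from 2 to 4 under the alternative scalings, filters, tests and offsets. It ran from 2 to 8 when 1 library was left out. The 8, without control replicate 1, were Axin1, Dvl1, Dvl2, Dvl3, Lrp5, Tle2, Wnt4 and Wnt6. No member was called lower, except 1, Wnt3, without control replicate 2 (0 to 1 over the libraries left out). In these fits 1 group has a single library, which is assumed to vary like the other group. The median log2 fold change of 0.28 was 0.17 with the GC offset and 0.16 with the GC offset and replicate block, and it ran from 0.17 to 0.36 when 1 library was left out. The cause was not tested. Wnt4 gave no value with at least 10 counts in every library, which removes it by construction, and no adjusted p in DESeq2's Wald test. Over all genes edgeR called 83, with 130 under the GC offset, 1017 under the replicate block, 444 under both, 218 with library totals alone, 217 in DESeq2's Wald test and 35 to 1512 when 1 library was left out. Library totals alone moved the median of all genes by 0.07 and that of the members to 0.34.

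The labels do not say what the shared replicate numbers mark. Same-numbered libraries' deviations correlated at 0.079 across 17910 genes over 2 pairs, and no pairing was assumed. Under the replicate block 4 members were called higher (Dvl3, Tle2, Wnt4 and Wnt6) and none lower, where 4.81% of all genes were called, and the median was 0.27. The block takes up part of the spread between libraries, so that less is left from which to judge error. Levels per kilobase depend on the gene model: with the longest transcript, Lef1 was 9.52 in place of 3.96 and Dkkl1 632 in place of 460. Low counts limit Wnt4, Wnt10a and the 10 untested members.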
